A study of Homo sapiens with 6 samples.

Results

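The SR splicing factors are RNA-binding proteins that choose which exons enter an mRNA. The 10 listed here, SRSF1 to SRSF7, SRSF10, SRSF11 and TRA2B, were grouped for their reported ties to the microRNA miR-10, and were found as probe sets that carry 1 of these names alone. That gave 41 probe sets for 9 genes, out of 41091 probe sets for 19775 genes. All 3 probe sets that list SRSF2 also list a second symbol, so SRSF2 has no value here. Of the 41 probe sets, 38 passed a filter on dim signals and were tested. All 9 genes passed it through their brightest probe set, which is called the main probe set below.

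RNA came from U87-2M1 cells. This invasive derivative of human U87 glioma cells was taken from an experimental lung metastasis and cultured again. Passage 4 cells, all kept in hypoxia, carried a baculoviral vector (an insect virus vector for gene delivery) with either a control decoy or a decoy against miR-10b, with 3 arrays each. Decoys carry sites that hold a microRNA away from its targets; whether that happened was not measured here. Nothing in the labels says that the 3 arrays of a group came from independent cultures. The p-values thus cover only the spread among these arrays, possibly technical, in a single subline.

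An SR protein joins an RNA-recognition motif to a tail rich in arginine and serine. Kinases of the SRPK and CLK families phosphorylate the tail and so govern where the protein sits and whether it acts. Many SR genes also hold a "poison" exon whose inclusion sends their own mRNA to nonsense-mediated decay, so one gene makes several transcripts. SRSF1, the founding member and a proto-oncogene, was reported as a target of miR-10a and miR-10b in neuroblastoma cells. A microRNA finds its targets mainly through its seed, bases 2 to 8. The sequence of miR-10a, the sister of miR-10b, is shown because this seed defines the site by which a target would be read, with the seed in capitals.

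hsa-miR-10a-5p: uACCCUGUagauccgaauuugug

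It lies at chr17:48579904-48579926 on the minus strand (RefSeq, GRCh38.p14), and its seed pairs with ACAGGGU. The transcripts of the SR genes were not searched for that site.

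Signals are quantile-normalized between the 6 arrays and given on a linear scale, and differences are miR-10b decoy minus control decoy on the log2(signal + 7) scale, which understates changes of dim probe sets. Control replicate 3 was brighter as deposited, with a trimmed mean signal of 192 against 155 to 163 on the other arrays. Within a group, arrays correlated with r from 0.985 to 0.987 over the tested genes, and between groups with r from 0.967 to 0.973. All 6 markers of cultured glioma or mesenchymal cells passed the filter; FN1, NES, SPARC and CAV1 were lower with the miR-10b decoy, and VIM and CD44 did not pass the test. Their summed level, in deposited signal as for the sums that follow, was 37735 to 44310 in controls and 32200 to 32839 with the decoy. The glial markers GFAP, S100B, OLIG2 and SOX10 lay under the filter level, and so did the blood, epithelial and endothelial markers PTPRC, CD14, EPCAM, CDH1, CDH5 and VWF. Of each of these 4 lists 1 marker passed the filter: MBP, CD3E, SFTPC and PECAM1, in the order glial, blood, epithelial and endothelial. PECAM1 was lower with the miR-10b decoy, and MBP, CD3E and SFTPC did not pass the test. PECAM1 had a mean deposited signal of 125, against 2.74 for CDH5 and 6.41 for VWF, so it made up most of the endothelial sum below. The summed level of the 5 glial markers was 25.9 to 66.3 in controls and 72.5 to 79.8 with the decoy, that of the 3 endothelial markers 149 to 164 and 105 to 118. The blood (18.3 to 50.9 and 16.6 to 28.0) and epithelial sums (66.8 to 89.1 and 42.3 to 79.8) overlapped between groups. RNA integrity was read from the 3'/5' ratio of the actin control probes, which came to 5.73 ± 0.47 for the control decoy and 8.54 ± 1.77 for the miR-10b decoy (SD, n = 3); for GAPDH it was 0.945 ± 0.019 and 0.943 ± 0.007. The part of these differences in the results below was not tested.

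At the main probe sets, SRSF6, SRSF10 and SRSF11 were lower with the miR-10b decoy, by 1.2- to 1.3-fold, and the other 6 genes did not pass (limma, Benjamini-Hochberg adjusted p under 0.05 over 13842 genes). Among all tested genes 17.3% were lower and 16.6% higher, so 3 lower of 9 and 0 higher of 9 are to be read against shares of about 1 in 6 in either direction. At an unadjusted p under 0.05, 2 members were higher (SRSF1 and TRA2B) and 3 lower. The share of all tested genes past that looser threshold is not given here. It is at least as large as the adjusted share in each direction. The median difference of the 9 genes was -0.11, against -0.02 for all tested genes. A lower signal cannot tell fewer expressing cells from less RNA per cell. Where groups are said below not to overlap, the smallest two-sided permutation p for 3 against 3 arrays is 0.1. The share of all genes, probe sets or pairs without overlap is not given here. The direction split of all called genes rested on the scaling, with 48.9% of calls higher here, 29.9% on the deposited scale and 62.2% after centring on array medians. The median of all genes was -0.14 on the deposited scale. With all 3 scalings 0 members were called higher.

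SRSF11, an SR-related protein that acts at the 3' splice site, showed the biggest main difference. Its signals were 4417, 4376 and 3834 on the control arrays and 3032, 3146 and 3509 on the decoy arrays, with no overlap. The log2 difference was -0.38 (SE 0.07, adjusted p = 0.00102), which is 1.30-fold lower. The call held when any 1 array was left out, and ended without variance moderation (adjusted p = 0.0596). Over the mean of all its probe sets the sign turned (0.06, adjusted p = 0.794).

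SRSF6, which promotes exon inclusion and is raised in several tumours, fell at both of its probe sets. The main one gave 1478, 1513 and 1554 in controls and 1188, 1233 and 1275 with the decoy. Every decoy array lay below every control array, a log2 difference of -0.30 (SE 0.06, adjusted p = 0.00154). This call held in all 17 alternatives.

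SRSF10, which can act as a splicing repressor when its tail is dephosphorylated, had 1037, 1029 and 982 in controls and 736, 923 and 897 with the decoy. The groups did not overlap, and decoy replicate 1 was the lowest array by a wide margin. The log2 difference was -0.26 (SE 0.08, adjusted p = 0.0316). Its call ended without decoy replicate 1 (-0.16, adjusted p = 0.101), without control replicate 1 (adjusted p = 0.0824) or 2 (adjusted p = 0.0918), and after centring on array medians (-0.17, adjusted p = 0.16). It ended too with no filter (adjusted p = 0.0583), no intensity trend (0.116), no moderation (0.166) or the mean of all probe sets (0.14), and held in 9 of 17 alternatives.

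**Figure D1:**
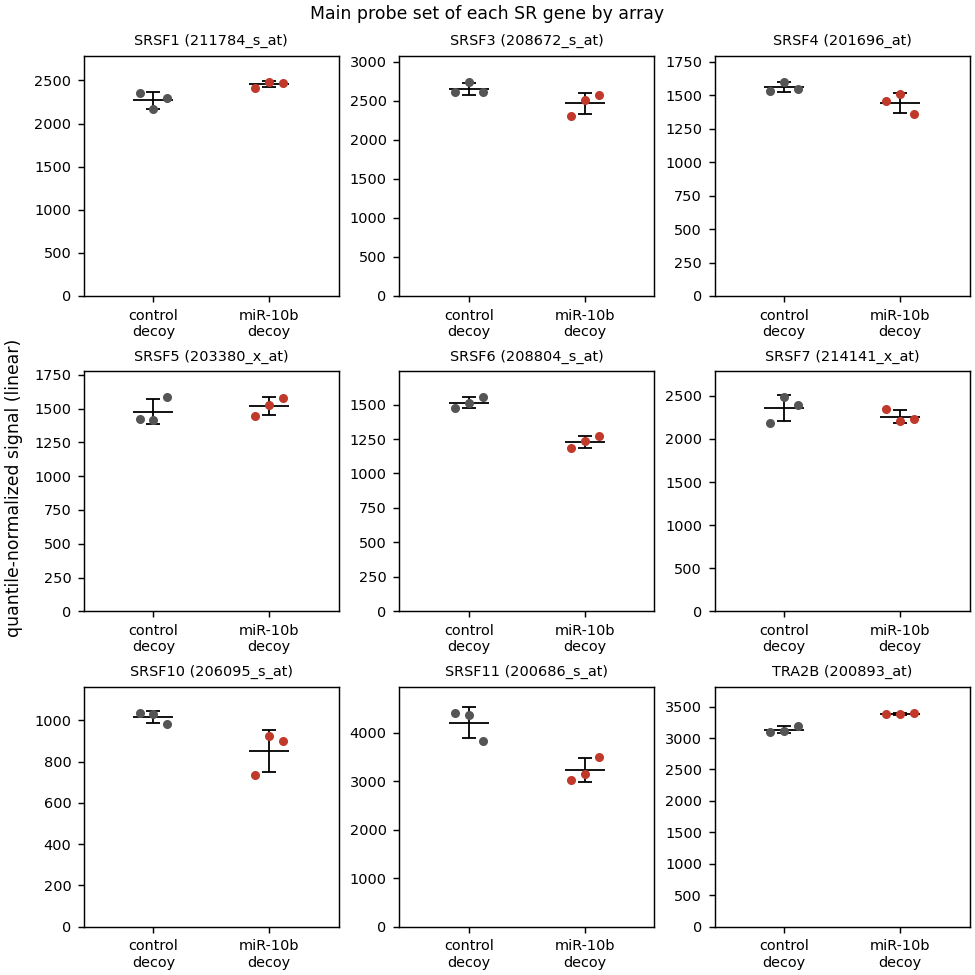
Quantile-normalized signal (linear, from 0) of the main probe set of each of 9 SR genes; points are arrays, the bar and whiskers the mean and SD of 3 arrays. Decoy arrays lie below all control arrays for SRSF3, SRSF4, SRSF6, SRSF10 and SRSF11, and above them for SRSF1 and TRA2B. The groups of SRSF5 and SRSF7 overlap. Only SRSF6, SRSF10 and SRSF11 passed the test.

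SRSF1 did not pass at its main probe set. Its signals were 2355, 2163 and 2293 in controls and 2414, 2484 and 2475 with the decoy. The decoy arrays lay just above the controls after normalization but overlapped them as deposited. The log2 difference was 0.11 with a 95% interval from 0.01 to 0.22 (adjusted p = 0.0971), so a rise above 1.17-fold lies outside that interval. It was -0.04 on the deposited scale and -0.29 over the mean of all 8 SRSF1 probe sets (adjusted p = 0.115).

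TRA2B, an SR-like activator that binds purine-rich exon enhancers, had the same size of difference at its main probe set. It gave 3089, 3117 and 3198 in controls and 3381, 3374 and 3405 with the decoy. The log2 difference was 0.11 (95% interval 0.02 to 0.20, adjusted p = 0.0593), -0.05 on the deposited scale. It was called when the dimmer 50% of genes were left out (adjusted p = 0.0481), and when variances were not moderated (adjusted p = 0.0206).

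SRSF3, the smallest SR protein, which also helps export mRNA, had 2610.1, 2746 and 2618 in controls and 2312, 2514 and 2576 with the decoy. Its log2 difference of -0.11 (95% interval -0.22 to 0.01) did not pass (adjusted p = 0.142), but passed at -0.17 when arrays were scaled to a common trimmed mean (adjusted p = 0.0327). SRSF4, a long-tailed SR protein, had 1532, 1602 and 1548 against 1460.3, 1508 and 1360.0, also -0.11 (95% interval -0.24 to 0.01, adjusted p = 0.149). In both genes the decoy arrays lay below the controls after normalization, by less than the test could call in the main setting. As deposited the SRSF4 groups overlapped.

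SRSF5, close in sequence to SRSF4 and SRSF6, had 1426, 1418 and 1584 in controls and 1447, 1526 and 1580.2 with the decoy. The groups overlapped at a log2 difference of 0.04 (95% interval -0.10 to 0.18). SRSF7, an SR protein with a zinc knuckle, had 2189.9, 2484 and 2399 against 2347, 2202 and 2228, a difference of -0.06 (95% interval -0.18 to 0.06). The main probe sets of SRSF5 and SRSF7 carry the suffix _x_at, which marks possible cross-hybridisation, as do probe sets of SRSF1, SRSF10 and SRSF11 below.

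**Figure D2:**
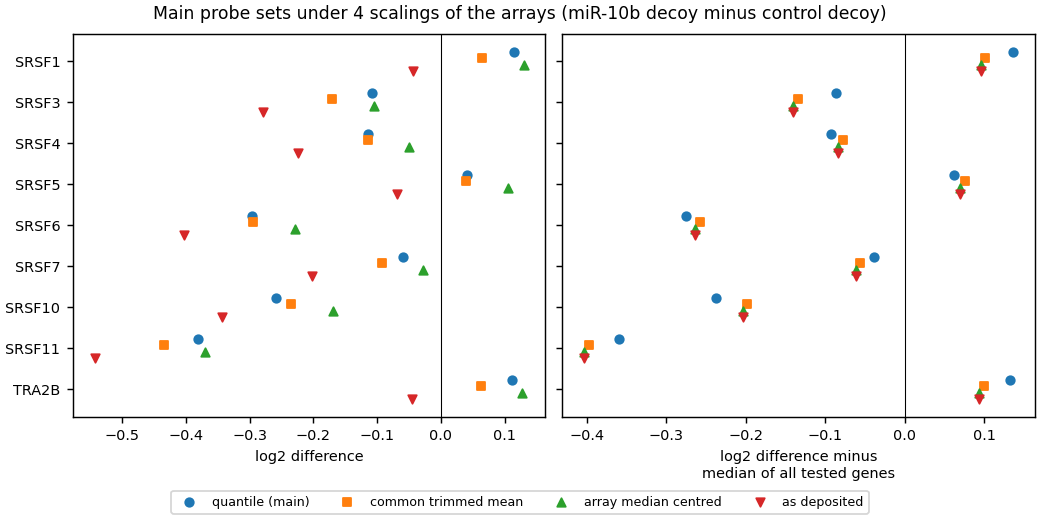
Log2 difference of each main probe set under 4 scalings of the arrays (left), and the same minus the median of all tested genes (right). On the deposited scale all 9 lie below 0, and relative to the median SRSF1, SRSF5 and TRA2B lie above 0 under each scaling.

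The probe sets of a gene differed among themselves. Probe sets of one gene can read different ends or introns of its transcripts; where each lies was not examined here. Of the 38 tested by themselves, 9 were lower, 2 higher and 27 did not pass, which is 23.7% lower and 5.26% higher, against 12.6% and 12.2% of all 28764 tested probe sets. Probe sets of 1 gene share its RNA and are not replicates. Adjusted p-values below come from this fit over probe sets unless a pair is named.

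Beside its rise at the main probe set, which did not pass, TRA2B had a probe set on either side. Probe set 200892_s_at gave 1699.6, 1695 and 1572 in controls and 1355, 1382 and 1449 with the decoy, a log2 difference of -0.25 (SE 0.06, adjusted p = 0.00857). Its call ended after centring (adjusted p = 0.0519) and without the intensity trend (adjusted p = 0.0886). Probe set 210180_s_at gave 79.4, 110.0 and 99.1 in controls and 158, 159.8 and 157 with the decoy, a log2 difference of 0.69 (SE 0.13, adjusted p = 0.00261). So one TRA2B probe set fell and another rose in the same cells, each without overlap between groups, and the rise was called in all 16 alternatives run for probe sets.

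SRSF6's second probe set, 206108_s_at, fell further than the first. It gave 229.7, 197 and 211 in controls and 126, 89.7 and 113 with the decoy, a log2 difference of -0.92 (SE 0.13, adjusted p = 4.5e-04), or 1.90-fold lower. It was also called in all 16 alternatives.

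SRSF7 showed a rise and a fall at probe sets other than the main one. Its remaining probe set, 201129_at, stood at 0.08 (adjusted p = 0.517). Probe set 213649_at had 367, 270.4 and 256 in controls and 403, 410.1 and 399.7 with the decoy (log2 difference 0.45, SE 0.12, adjusted p = 0.018). Probe set 211439_at had 66.8, 58.7 and 63.7 in controls and 45.4, 25.7 and 40.5 with the decoy (log2 difference -0.69, SE 0.20, adjusted p = 0.0278). Neither overlapped between groups. The first call ended without control replicate 2 or 3 or decoy replicate 2 (adjusted p up to 0.0742), and the second without any 1 control array or decoy replicate 2 (up to 0.0947). Both ended without the intensity trend (adjusted p = 0.0938 and 0.0596) and without moderation (0.156 and 0.121). The first also ended on the deposited scale (adjusted p = 0.0571), and the second with no filter (adjusted p = 0.081).

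SRSF10 had a second lower probe set, 213594_x_at, at -0.28 (SE 0.08, adjusted p = 0.0286), and 2 others at -0.21 and -0.23 that did not pass (adjusted p = 0.0753 and 0.127). The remaining one, 225348_at, stood at 0.15 (adjusted p = 0.34). Thus 4 of its 5 probe sets shared a negative sign within a narrow range. The call of 213594_x_at ended without control replicate 1 or 2 or decoy replicate 1 or 2 (adjusted p up to 0.115). It ended too after centring (adjusted p = 0.165), with trimmed-mean scaling (0.0552), no intensity trend (0.117) or no moderation (0.132). That call thus ended in 8 alternatives and held in 8.

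In SRSF11 the main probe set was the only one called. In this fit its call ended without the intensity trend (adjusted p = 0.0565) and without moderation (0.0748). Probe set 200685_at, without overlap between groups, stood at -0.20 (adjusted p = 0.0528), 213742_at at 0.11 (adjusted p = 0.416) and 236948_x_at at 0.69 (SE 0.37, adjusted p = 0.2), the last with control arrays from 26.6 to 66.9. Averaged over all 4 probe sets the gene's difference was 0.06 (adjusted p = 0.794), opposite in sign to the main value.

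All 7 other SRSF1 probe sets had negative differences, from -0.04 to -0.75, whereas the main one was positive. Only 227164_at passed. It gave 350.4, 358 and 399 in controls and 283, 337 and 274 with the decoy, a log2 difference of -0.31 (SE 0.10, adjusted p = 0.044). Its call held without decoy replicate 2 and ended when any other array was left out (adjusted p up to 0.133). It ended too after centring (adjusted p = 0.13), with no filter (0.0651), no intensity trend (0.12), the replicate block (0.0539) or no moderation (0.155). For SRSF1, a reported miR-10 target, 0 of 8 probe sets were called higher, beside 12.2% of all tested probe sets. At an unadjusted p under 0.05 the main one was higher, and 227164_at, 229246_at (-0.47) and 201741_x_at (-0.75) were lower. The share of all tested probe sets past that looser threshold is not given here. Probe set 201741_x_at was dim, at a mean deposited signal of 23.7, and its groups overlapped after normalization.

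SRSF4 had 1 lower probe set, 239512_at, at 42.0, 55.1 and 37.95 in controls and 18.5, 30.4 and 25.6 with the decoy (log2 difference -0.71, SE 0.23, adjusted p = 0.042). The call ended without control replicate 1 or 2 or decoy replicate 1 or 3 (adjusted p up to 0.162). It ended too with no filter (adjusted p = 0.106), no intensity trend (0.0555) or no moderation (0.115). A dim neighbour, 239511_s_at, had the same size of difference at -0.71 without passing (adjusted p = 0.107), and 242837_at stood at 0.04 (adjusted p = 0.837). The 5 tested SRSF3 probe sets lay between -0.11 and -0.03, and 0 passed. Of the 3 SRSF5 probe sets 0 passed, the brighter ones at 0.04 and -0.12 and the dim 210077_s_at at 0.50 (adjusted p = 0.257). One probe set each of SRSF3, SRSF4 and TRA2B lay under the filter level of 11.3 and was not tested.

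**Figure D3:**
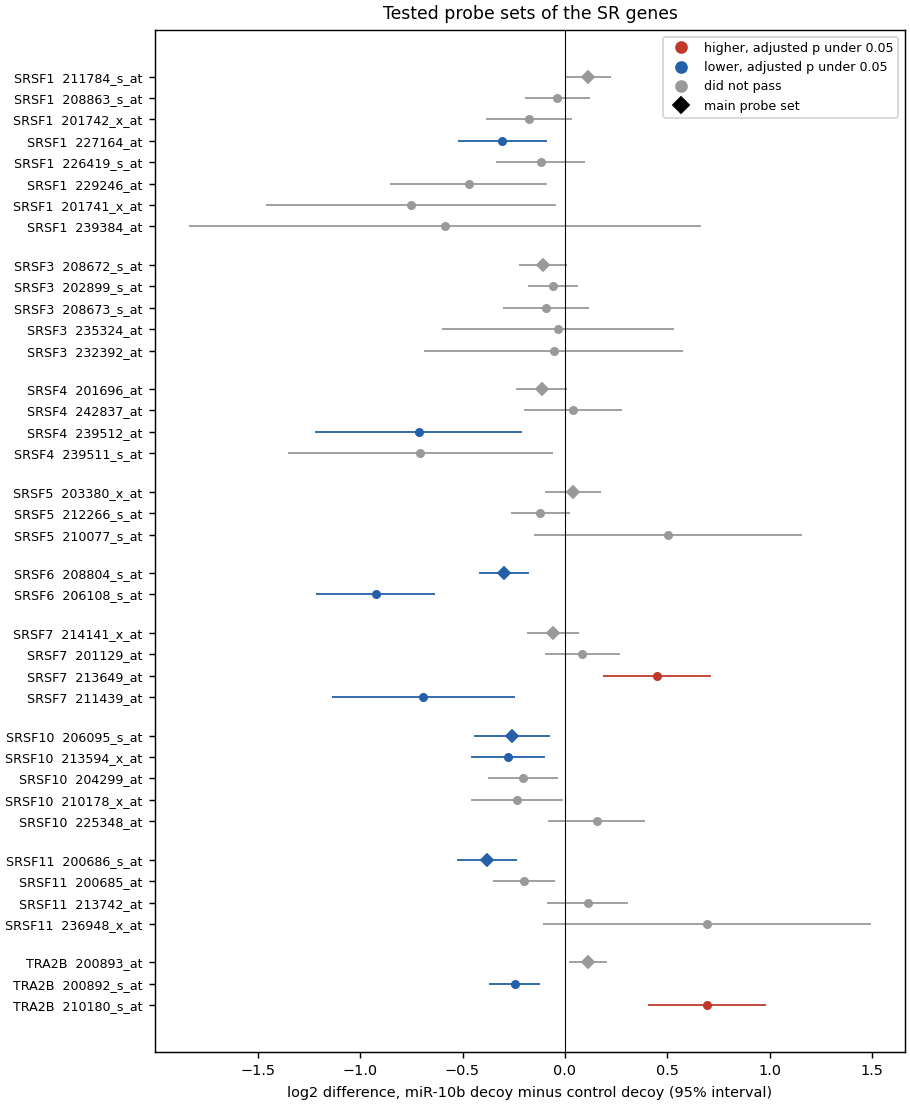
Log2 difference with 95% interval of each of 38 tested probe sets, by gene; diamonds are main probe sets, blue is lower and red higher at an adjusted p under 0.05 over all tested probe sets. Blue and red stand side by side in SRSF7 and TRA2B.

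Whether probe sets of a gene changed unequally was tested on the ratio of another probe set to the main one within each array, in which an array's brightness nearly cancels. Of 29 such pairs in the SR genes, 2 rose and 2 fell against their main probe set, 6.90% each way, beside 2.91% higher and 3.83% lower among all 13806 pairs (limma, adjusted p under 0.05 over all pairs). The pairs of a gene share its main probe set, so they are not independent.

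TRA2B had both of its tested pairs called, in opposite directions. The ratio of 200892_s_at to the main probe set was 0.529 ± 0.032 on the control arrays and 0.412 ± 0.013 on the decoy arrays (SD, n = 3), a log2 difference of -0.36 (SE 0.07, adjusted p = 0.0128). The ratio of 210180_s_at to it went from 0.0307 ± 0.0048 to 0.0468 ± 5.7e-04, a log2 difference of 0.58 (SE 0.15, adjusted p = 0.0397). For both, every decoy array lay on one side of every control array.

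The SRSF6 ratio of 206108_s_at to the main probe set fell from 0.141 ± 0.013 to 0.0891 ± 0.017 (SD, n = 3; log2 difference -0.63, SE 0.16, adjusted p = 0.0363). In SRSF11 the ratio of 213742_at rose from 0.0722 ± 0.0064 to 0.102 ± 0.0058 (log2 difference 0.49, SE 0.11, adjusted p = 0.0236). The SRSF6 and SRSF11 groups did not overlap either. The nearest pairs that missed the threshold were 227164_at of SRSF1 at -0.42 (adjusted p = 0.0511), 213649_at of SRSF7 at 0.51 (adjusted p = 0.0759) and 225348_at of SRSF10 at 0.41 (adjusted p = 0.0803).

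These pair calls were close to the threshold. None of the 4 was called without the intensity trend (adjusted p from 0.1 to 0.152) or without moderation (0.099 to 0.178), and leaving out 1 array ended each in 3 to 5 of 6 fits. That of 200892_s_at ended without control replicate 2 or decoy replicate 1 or 2, and 210180_s_at was called only without control replicate 2, SRSF6 only without decoy replicate 1 and SRSF11 only without control replicate 3. How many of all pairs were called in these alternatives is not given here. The actin 3'/5' ratio given above differed between the same arrays.

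**Figure D4:**
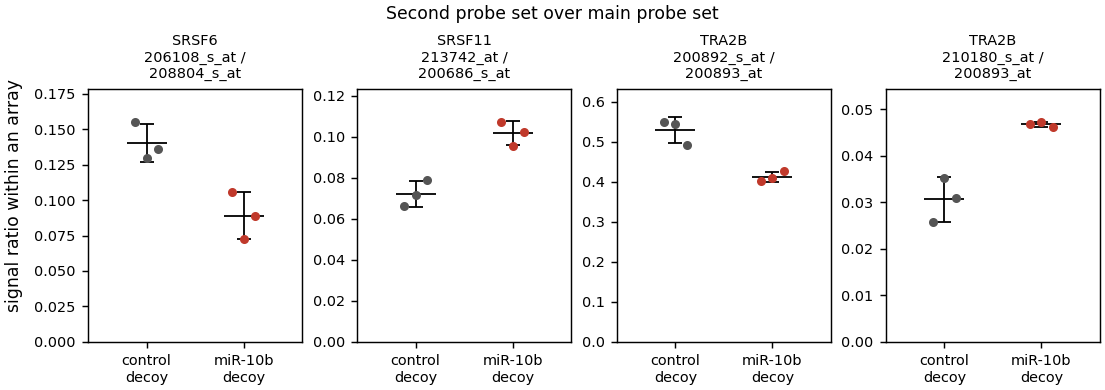
Ratio of another probe set to the main probe set of its gene within each array (linear, from 0), with mean and SD of 3 arrays, for the 4 called pairs. Decoy arrays lie below controls for SRSF6 and for 200892_s_at of TRA2B, and above them for SRSF11 and for 210180_s_at of TRA2B.

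Genes that work beside the SR proteins were counted in 8 lists, at main probe sets, to be read against 16.6% higher and 17.3% lower among all tested genes. Calls among all tested genes moved with the setting too, from 2294 higher and 2401 lower to 1094 and 2561 on the deposited scale. They were 2861 and 1740 after centring, 1462 and 1574 over the mean of all probe sets, and 1450 and 1379 without moderation. List counts under another setting are to be read against these. Many of the listed genes also have probe sets that disagree with the main one. The value over the mean of all probe sets is therefore given where it ends the call of a named gene, except for CLK4. Of the other SR proteins, SRSF8 and the TRA2B relative TRA2A were tested and stood at -0.15 (adjusted p = 0.113) and -0.14 (adjusted p = 0.0767). After normalization both had decoy arrays below all controls and an unadjusted p under 0.05, but 0 of 2 passed. As deposited the SRSF8 groups overlapped. SRSF12 lay under the filter level, and SRSF9 had no probe set of its own name alone.

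Of 8 tested kinases and importers of SR proteins, 4 were higher and 0 lower (0 lower also at an unadjusted p under 0.05), with a list median of 0.28, or 0.10 over the mean of all probe sets. CLK3 (0.24, adjusted p = 0.0653), CLK1 (-0.10), CLK2 (-0.05) and SRPK1 (0.01) did not pass. SRPK2, a kinase that loads the arginine-serine tail, stood at 292 ± 24.3 under the control decoy and 517 ± 23.6 under the miR-10b decoy (n = 3, SD), a log2 difference of 0.81 (SE 0.08, adjusted p = 3.0e-05). The kinases DYRK1A and CLK4 were higher at 0.45 and 0.31, and TNPO3, the importin that carries phosphorylated SR proteins into the nucleus, at 0.34 (SE 0.07, adjusted p = 0.00372). On the deposited scale 2 were higher, over the mean of all probe sets 1, and without moderation 1. Over the mean of all probe sets DYRK1A stood at 0.01 (adjusted p = 0.972), TNPO3 at 0.19 (adjusted p = 0.0623) and SRPK2 at 0.40 (adjusted p = 0.025). The CLK4 call ended there too. The main probe set of SRPK2, like that of PNN below, carries the suffix for possible cross-hybridisation, and a second SRPK2 probe set stood at 0.05 (adjusted p = 0.838).

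SR-related proteins split, with 2 higher and 3 lower of 14. SON, a large nuclear speckle protein, was higher at 0.46 (SE 0.06, adjusted p = 1.1e-04), but 2 other SON probe sets stood at 0.10 (adjusted p = 0.164) and 0.09 (adjusted p = 0.253), both lower against the main one (pair adjusted p = 0.0105 and 0.0129). The exon junction protein PNN and the splicing coactivator SRRM1 were lower at -0.27 and -0.25, but over the mean of all probe sets they stood at 0.04 and -0.09 (adjusted p = 0.651 and 0.465), where 1 of the list was higher and 0 lower. On the deposited scale 0 were higher and 3 lower, and with centring 5 and 2.

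Of 5 splicing genes reported as miR-10b targets in glioma cells, 1 was higher and 1 lower. MBNL1, a muscleblind regulator of alternative exons, was higher at 0.14 (SE 0.05, adjusted p = 0.0396) and its paralog MBNL2 lower at -0.30 (SE 0.09, adjusted p = 0.0258). MBNL3 stood at -0.25 (adjusted p = 0.357) and RSRC1 at 0.21 (adjusted p = 0.0791). RSRC1 passed after centring (0.29, adjusted p = 0.018), with trimmed-mean scaling (adjusted p = 0.0443) and on leaving out control replicate 3 (adjusted p = 0.0289), and stood at -0.07 over the mean of all its probe sets. SART3, a snRNP recycling factor, stood at 0.12 (adjusted p = 0.32) at its main probe set, whereas its probe set 209127_s_at was higher at 0.59 (adjusted p = 3.3e-04) and the mean of its probe sets at 0.38 (adjusted p = 0.0103). MBNL1 was not called on the deposited scale, where 0 of the 5 were higher, nor when any 1 array was left out (adjusted p from 0.0698 to 0.108), and stood at -0.05 over the mean of all probe sets. The MBNL2 call ended without control replicate 2 or 3 or decoy replicate 1 or 2 (adjusted p up to 0.101). It ended too after centring (adjusted p = 0.141), with no filter (0.0503), no intensity trend (0.101) or no moderation (0.16).

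Among hnRNPs, RNA-binding proteins that often oppose SR proteins, 8 of 22 were higher and 2 lower. HNRNPH3 (0.39), PTBP3 (0.40) and HNRNPDL (0.24) had the smallest p. Over the mean of all probe sets 3 hnRNPs were higher and 0 lower. In the core spliceosome 11 of 31 were higher and 1 lower, led by PRPF3 at 0.50, SART1 at 0.47 and the lower SNRPA1 at -0.33. These counts moved with the scaling, as did those of all genes. On the deposited scale 1 hnRNP was higher and 1 lower, and 2 core genes were higher and 2 lower. The core count also fell to between 5 and 8 higher when any 1 array was left out. Over the mean of all probe sets SART1 stood at 0.13 (adjusted p = 0.568), PTBP3 at 0.20 (adjusted p = 0.202) and HNRNPDL at -0.0012 (adjusted p = 0.991).

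Other regulators gave 3 higher and 2 lower of 13, with CELF1 at 0.47, QKI at 0.42 and RBFOX2 at -0.46. On the deposited scale 0 of these 13 were higher and 2 lower. Over the mean of all probe sets CELF1 stood at 0.05 (adjusted p = 0.823) and RBFOX2 at -0.23 (adjusted p = 0.12), and 1 was higher and 1 lower. Of 6 nonsense-mediated decay factors, SMG6 was higher at 1.14 (SE 0.32, adjusted p = 0.0157), at dim signals of 20.0 ± 8.95 and 52.3 ± 18.0 (SD, n = 3), and not without control replicate 1 or decoy replicate 1 or 2 (adjusted p up to 0.0746) or over the mean of all its probe sets (0.46, adjusted p = 0.214). The SMG6 call ended too with no intensity trend (adjusted p = 0.0534) or no moderation (0.129). The other 5 factors did not pass, SMG9 at 0.19 and SMG5 at -0.09 having the next smallest p. Of the 6 factors 0 were lower, also at an unadjusted p under 0.05.

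**Figure D5:**
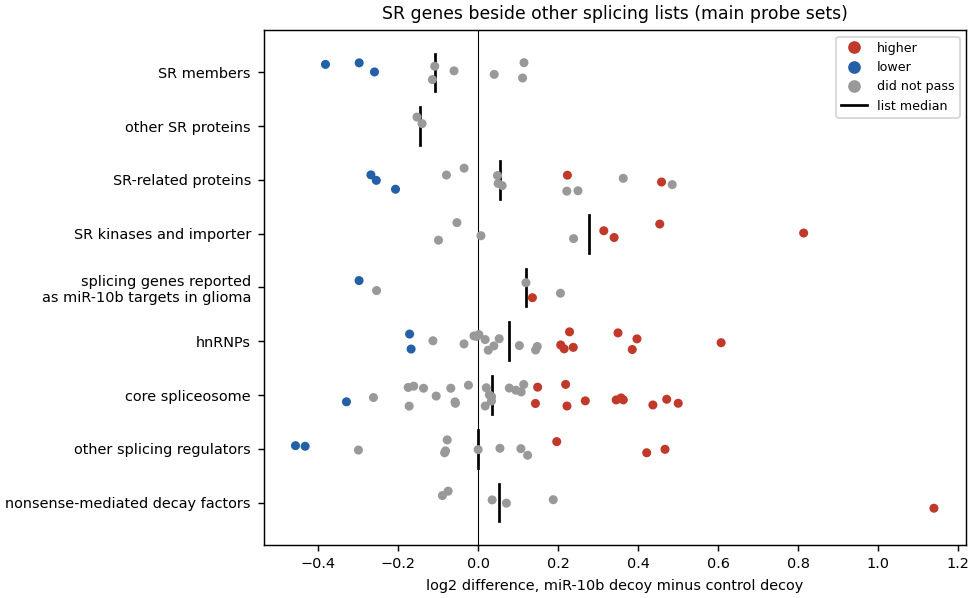
Log2 difference of each tested gene at its main probe set, by list, with the list median as a black bar; red is higher and blue lower at an adjusted p under 0.05. The SR members reach from -0.38 to 0.11, with their 3 called genes on the lower side.

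The 3 genes whose pattern over the 6 arrays was most like that of SRSF1 at its main probe set were EEFSEC (Pearson r = 0.993), PHETA1 (r = 0.991) and KIAA1143 (r = 0.990), a description over 6 arrays that fall into 2 groups. Of the reference genes, GAPDH stood at -0.02 (adjusted p = 0.658) and ACTB at -0.10 (adjusted p = 0.108).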

How the data were processed

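The deposited values are linear signal intensities made by the authors, with MAS5 named in the submitters' processing notes; neither a version nor its scaling target is stated in those sources. RNA was labelled from 0.25 µg per array, per the labels' protocols. Probe sets were named from the platform annotation: 41097 carried 1 symbol, 1801 several and 11777 none; the 62 controls were not tested. By Entrez identifier 41037 of 41091 matched RefSeq.

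Signals were quantile-normalized, since the deposited scale differed between arrays, and turned into log2(signal + 7). The probe set with the highest mean deposited signal stood for a gene, and genes under the 30th percentile of that mean (15.6; 11.3 for probe sets) were left out. Genes (13842), probe sets (28764) and pairs of probe sets (13806) were each compared with limma 3.58.1 (R 4.3.3; lmFit, eBayes with an intensity trend, two-sided, Benjamini-Hochberg, threshold 0.05). Prior degrees of freedom were 7.68, 7.44 and 7.40 against 4 residual. The scripts were tested on simulated data.

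The members, lists and settings were chosen with earlier results of these data known. Every member and probe set is reported, every gene of the short SR and miR-10b target lists, up to 3 genes of smallest p in each other list, and the 3 genes most like SRSF1; the CLK kinases, SRPK1 and single second probe sets were named after their values were seen. The precision is limited by 3 arrays per group. No batch is named in the labels. The alternatives were 3 other scalings, 2 offsets, 2 filters, no trend, no moderation, the mean of a gene's probe sets, the replicate block and each array left out.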

Additional observations from a re-analysis of the deposited data

How the results depend on the processing

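Counts were recomputed under every alternative. How many of all probe sets and of all pairs were called in each alternative is not given here. The member counts of probe sets and pairs below thus cannot show whether the SR genes moved more than others. As deposited, 1094 of all genes were higher and 1 member probe set was. After centring, 5 member probe sets were lower. With no filter, 5 member probe sets were lower, 1 pair was called each way, and 2027 of all genes were higher and 2092 lower. With a filter at the 50th percentile 1 member gene was higher, beside 2165 of all genes. Without the intensity trend 1 member probe set was higher, 2 were lower and 0 pairs were called either way. Of all genes 1801 were then higher and 1807 lower. With no moderation 1 member gene was higher and 1 lower, 3 member probe sets were lower, 0 pairs were called either way, and 1450 of all genes were higher and 1379 lower. With the mean of all probe sets 1 member gene was lower, and 1462 of all genes were higher and 1574 lower.

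Leaving out 1 array gave 0 higher and 2 to 3 lower member genes, 1 to 2 higher and 4 to 8 lower member probe sets, 0 to 2 higher and 0 to 1 lower pairs, and 1873 to 2150 higher and 1832 to 2148 lower genes. Without control replicate 1 or 2, 4 member probe sets were lower, without decoy replicate 1 there were 5, and without decoy replicate 2 no pair was called; pairs called higher were 0 also without decoy replicate 1 or 3, and pairs called lower were 0 without control replicate 2.

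Signs turned on the deposited scale for SRSF1 (-0.044), SRSF5 (-0.069) and TRA2B (-0.046), and with the mean of all probe sets for SRSF1 (-0.29), SRSF11 (0.056), PNN (0.041), MBNL1 (-0.050), RSRC1 (-0.067), HNRNPDL (-0.0012) and SMG9 (-0.12). The cause was not tested.

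With the replicate number as a block, 0 member genes were higher and 3 lower, 2 member probe sets higher and 8 lower (227164_at of SRSF1 no longer, adjusted p = 0.0539), 2 pairs higher and 2 lower. Deviations of same-numbered arrays correlated at 0.03, -0.03 and -0.01, so no shared deviation by number was seen. These values cannot show whether same-numbered arrays were handled together. Dim probe sets, near the filter level, have wide intervals and limit what can be called.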

Other observations

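Unequal change among probe sets of one gene was also called in other splicing genes. In HNRNPA2B1, an hnRNP that packages pre-mRNA, 225932_s_at was higher at 0.49 and the main probe set 205292_s_at lower at -0.17, a pair difference of 0.66 (SE 0.07, limma adjusted p = 7.6e-04 over all pairs, n = 3). In HNRNPDL the main probe set was higher at 0.24 and 212454_x_at lower at -0.38, a pair difference of -0.62 (adjusted p = 0.00111). In PNN, part of the exon junction complex, the main probe set was lower at -0.27 and 212037_at higher at 0.35 (pair difference 0.62, adjusted p = 0.00775). By list, beside 2.91% higher and 3.83% lower among all pairs, 1 pair was higher and 4 lower of 38 among SR-related proteins, 1 and 4 of 52 among hnRNPs, 2 and 7 of 46 among other splicing regulators, 1 and 2 of 14 among the reported miR-10b targets, and 1 and 0 of 25 in the core spliceosome. Of the pairs of the kinases and importer 0 of 12 were higher and 1 lower, and 0 of 6 in the other SR proteins and 0 of 5 in the decay factors were called. These genes were named after their values were seen, and the pairs of a gene share its main probe set.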
